A study of Mus musculus with 12 samples.

Results

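MHC class I molecules are the cell surface proteins that show short peptides from inside a cell to CD8 T cells, and 8 genes of this pathway were followed in whole blood of *Pik3cg*-/- mice: *H2-K1*, *H2-D1*, *H2-T23*, *H2-M3*, *B2m*, *Tap1*, *Tap2* and *Tapbp*. They were found by gene symbol in the annotation of the array, which gave 18 of its 45281 probes. Of these, 11 probes of 6 genes were among the 5498 probes kept for testing, a probe being kept if its detection p-value was under 0.01 on at least 3 of 12 arrays. Whole blood of 3 *Pik3cg*-/- mice and 3 wild type (WT) mice was hybridized to Illumina MouseWG-6 v2 arrays, with 2 technical arrays per mouse. *Pik3cg* encodes the catalytic p110γ protein of phosphoinositide 3-kinase, and *Pik3cg*-/- mice lack it in every tissue, so that the design asks how blood transcripts differ without it. The mutation was carried on a C57BL/6J Jax background, in a separate colony closed to outside mice. WT mice were of the C57BL/6J Jax strain and are not described as littermates of the knockout mice. All 6 mice were females of 13 to 16 weeks on the same breeder diet, and blood came from the retro-orbital sinus under terminal anaesthesia. Mice carry the letters A to C within each genotype, and the labels do not say that these letters pair mice across genotypes.

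A class I molecule consists of a heavy chain, a peptide and the invariant light chain β2-microglobulin, without which most heavy chains do not leave the endoplasmic reticulum. Peptides cut by the proteasome are pumped into the endoplasmic reticulum by the transporter of TAP1 and TAP2, and tapasin, the product of *Tapbp*, holds the empty heavy chain beside that transporter while peptides are tried. Nearly all nucleated blood cells carry class I molecules, and platelets carry them too. *H2-K1* and *H2-D1* encode the classical heavy chains, *H2-T23* encodes Qa-1, which is read by NK cell receptors, and *H2-M3* encodes a heavy chain that binds formylated peptides.

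*B2m* was the member whose values separated the genotypes. Both of its measured probes had lower values in all 3 *Pik3cg*-/- mice than in any WT mouse, with log2 fold changes of −0.79 and −0.86, but neither passed the threshold of an adjusted p of 0.05. The measured heavy chain, transporter and tapasin probes had log2 fold changes between −0.13 and 0.36, and in each of them the genotypes overlapped. None of the 11 member probes passed the threshold in limma after Benjamini-Hochberg adjustment, where the background was 150 of 5498 kept probes (2.73%), with 1.29% of probes called lower and 1.44% called higher in *Pik3cg*-/- blood. At an unadjusted p under 0.05 there were 2 member probes, both of *B2m*, and 1157 kept probes in all (21.0%).

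Classical class I heavy chain genes are known to be regulated through short sequence elements in their control regions. These are an enhancer with a κB site, an interferon-responsive repeat, and downstream of them an X2 box and a CCAAT box. Other members need not hold all of them. RefSeq sequences of 250 bases before to 50 bases after the annotated start (build GRCm38.p6) were given for 7 of the 8 members. The windows of *B2m*, *H2-K1* and *H2-D1* are shown because the values of *B2m* separated the genotypes while those of the classical heavy chains did not. They lie at chr2:122147437-122147736 on the plus strand for *B2m*, chr17:34000298-34000597 on the minus strand for *H2-K1* (the first of its 2 windows) and chr17:35262844-35263143 on the plus strand for *H2-D1*. All are written 5′ to 3′ on the strand of the gene, and capitals mark every match on either strand to GGGGATTCC, GAAANNGAA, GAANNGAAA, TGACG or CCAAT.
B2m: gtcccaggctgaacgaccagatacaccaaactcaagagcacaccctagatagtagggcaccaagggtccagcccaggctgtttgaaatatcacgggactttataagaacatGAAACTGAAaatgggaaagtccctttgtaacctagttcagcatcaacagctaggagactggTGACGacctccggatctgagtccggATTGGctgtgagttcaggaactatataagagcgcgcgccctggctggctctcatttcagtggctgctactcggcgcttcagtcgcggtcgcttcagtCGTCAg
H2-K1: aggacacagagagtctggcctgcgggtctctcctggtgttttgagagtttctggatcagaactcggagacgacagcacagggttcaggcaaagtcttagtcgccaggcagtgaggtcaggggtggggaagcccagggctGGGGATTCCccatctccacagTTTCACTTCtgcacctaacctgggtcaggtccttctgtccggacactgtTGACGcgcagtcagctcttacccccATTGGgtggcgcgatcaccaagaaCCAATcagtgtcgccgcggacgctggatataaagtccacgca
H2-D1: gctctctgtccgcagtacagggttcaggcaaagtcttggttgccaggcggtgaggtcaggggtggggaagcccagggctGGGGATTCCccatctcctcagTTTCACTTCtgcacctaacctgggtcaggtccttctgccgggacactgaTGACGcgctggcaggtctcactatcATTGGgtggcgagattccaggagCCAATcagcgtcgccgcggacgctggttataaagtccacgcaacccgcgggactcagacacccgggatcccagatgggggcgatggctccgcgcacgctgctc

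The κB sequence GGGGATTCC was found in the windows of *H2-K1* and *H2-D1*, which is 2 of 7 member genes, against 0.25% of the 32851 windows searched. Counted from the annotated start, it began at −111 in *H2-K1* (−125 in its second window) and at −171 in *H2-D1*. TGACG began at −41 and −101 in the windows shown. These positions depend on where the start is annotated, and their difference between the genes is not read as a result. Only this κB spelling, known from the class I enhancer, was searched, so its matches in heavy chain genes are no independent result. The lack of a match in *B2m* does not show that its window holds no κB site. The 2 interferon-type repeats differ only in whether the longer arm comes first, and they can share letters with each other but did not in these windows. GAANNGAAA was matched in *H2-K1*, *H2-D1* and *H2-M3* (3 of 7 member genes, 7.52% of all windows), and GAAANNGAA in *B2m* and *H2-T23* (2 of 7 member genes, 8.56% of all windows). The short X2 core TGACG was present in 5 of 7 member genes and in 20.8% of all windows, and CCAAT was present in all 7 member genes and in 37.4% of all windows. Other spellings of these elements were not searched, and a match describes letters and not a bound site.

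At a detection p under 0.01, 3558 to 5511 probes were detected on *Pik3cg*-/- arrays and 4648 to 4995 probes on WT arrays. The SD of a single technical array around its mouse was estimated from the 2 arrays of each mouse across kept probes. On the log2 scale it was 0.296 to 0.330 in *Pik3cg*-/- mice and 0.246 to 0.250 in WT mice. The arrays did not check the genotype, because 1 *Pik3cg* probe was detected on no array and the other, ILMN_1227086, on 2 of 6 arrays in each group. For arrays the number of mice limits the precision. The p-values set the difference between genotypes against the spread between 3 mice per group, which limma moderates with that of all kept probes. In whole blood, fewer cells of a type and less RNA per cell cannot be told apart.

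The light chain gene *B2m* was bright on every array. Before normalization, probe ILMN_1216746 had signals of 18873 and 32815 in *Pik3cg*-/- mouse A, 16098 and 25686 in mouse B, and 17321 and 33478 in mouse C. In WT blood the signals of the same probe were 42263 and 59585 in mouse A, 36178 and 42144 in mouse B, and 32365 and 30760 in mouse C. These unnormalized signals overlapped between genotypes, since the second array of *Pik3cg*-/- mice A and C was brighter than an array of WT mouse C. The brightest probe of each array reached 70589 to 71433 on *Pik3cg*-/- arrays and 70669 to 71915 on WT arrays, above all signals of *B2m*.

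After normalization, the 6 *Pik3cg*-/- arrays lay between 14.24 and 14.85 and the 6 WT arrays between 15.04 and 15.71 on the log2 scale for ILMN_1216746, without overlap. The mean of the 2 arrays was 14.37, 14.50 and 14.78 in *Pik3cg*-/- mice A, B and C, against 15.70, 15.21 and 15.10 in WT mice A, B and C. WT mouse A was the highest of the 6 mice and *Pik3cg*-/- mouse A the lowest. *B2m* thus averaged 14.55 ± 0.21 in *Pik3cg*-/- mice and 15.34 ± 0.32 in WT mice (SD, n = 3 each), a log2 fold change of −0.79 (standard error 0.21, 95% interval −1.26 to −0.31) or a 1.73-fold lower mean. The adjusted p from limma was 0.0854.

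The other measured *B2m* probe, ILMN_2739999, repeated this order of the groups. It had log2 values of 14.27, 14.34 and 14.78 in *Pik3cg*-/- mice A, B and C, against 15.66, 15.26 and 15.04 in WT mice A, B and C. Its log2 fold change was −0.86 (standard error 0.22, 95% interval −1.35 to −0.36), a 1.81-fold lower mean in *Pik3cg*-/- mice, with an adjusted p of 0.0778 from limma. The log2 fold changes of the 2 *B2m* probes differed by −0.07 (ILMN_2739999 minus ILMN_1216746), which an exact permutation test over the mice did not separate from 0 (two-sided, p = 0.4, 0.625 after Benjamini-Hochberg adjustment over 5 such pairs of probes). Both probes target the same transcript in the same blood, so they are repeated measurements and not 2 independent results. A further *B2m* probe, ILMN_2670561, was detected on no array.

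**Figure D1:**
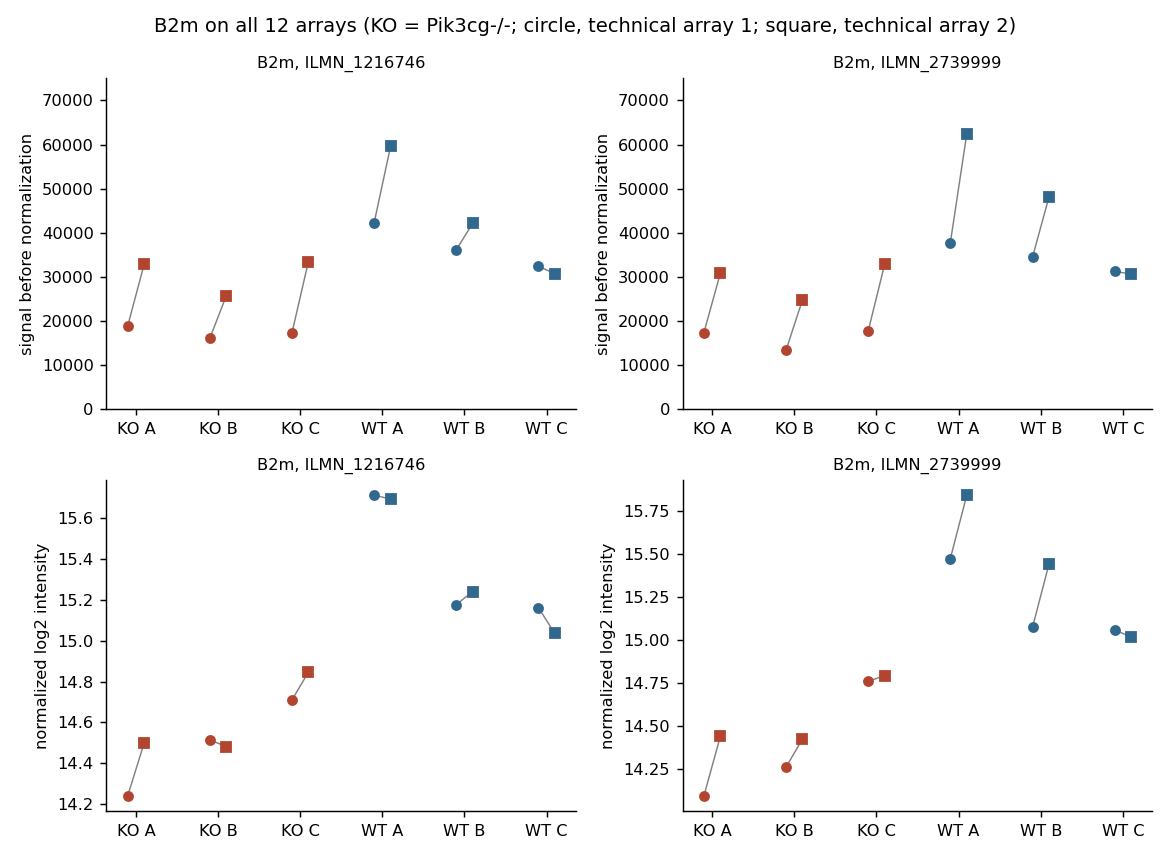
Signals of both measured B2m probes on all 12 arrays, before normalization (upper row) and as normalized log2 intensity (lower row); lines join the 2 technical arrays of a mouse. Before normalization the genotypes overlapped, whereas the normalized values of all 6 Pik3cg-/- arrays lay below those of all 6 WT arrays, at 14.24 to 14.85 against 15.04 to 15.71 for ILMN_1216746.

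Separation of the genotypes by itself was common in these data. Of all kept probes, 27.8% had no overlap between the 3 *Pik3cg*-/- and the 3 WT mice, and 14.4% had none and were lower in *Pik3cg*-/- mice, beside 2 of 11 member probes. With each gene represented by its brightest kept probe, 1 of 6 member genes (*B2m*) was at least 1.5-fold lower, beside 8.74% of 3822 genes, and 2.49% of those genes passed the adjusted threshold. The *B2m* difference was smallest when WT mouse A was left out, with log2 fold changes of −0.61 and −0.69 and adjusted p of 0.285 and 0.279 from limma. Without *Pik3cg*-/- mouse A they were −0.70 and −0.76, with adjusted p of 0.0946 and 0.0859.

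The choice of model decided whether *B2m* was called. When all 12 arrays entered the fit and mice were a random block, the adjusted p in limma was 0.00887 and 0.0138. That fit shares 1 correlation between arrays of a mouse over all probes, although only 6 mice are independent. Its p can be too small where mice differ more than their arrays. For ILMN_1216746 the 2 arrays of a mouse differed by a median of 0.095, against SDs of 0.21 and 0.32 between mice. With mouse means and a trended and robust prior, the adjusted p in limma was 0.0214 and 0.0198. In the 1-way analysis of variance that the methods name, run here on the same values, *B2m* had an unadjusted p of 0.0236 (ILMN_1216746) and 0.0238 (ILMN_2739999), where 915 kept probes were under 0.05 and 448 of these also differed at least 1.5-fold. After Benjamini-Hochberg adjustment it was 0.235 for both, and 4 kept probes passed. On the authors' log2 values the unadjusted p was 0.0244 and 0.0241, with 1.78-fold and 1.87-fold lower means in *Pik3cg*-/- mice. Over all 22 alternatives the sign of both probes was negative.

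The classical heavy chain genes were measured beside *B2m* and showed no difference of that size. *H2-K1*, read by ILMN_2588139, had log2 values of 11.45, 10.92 and 10.89 in *Pik3cg*-/- mice A, B and C, against 11.09, 11.33 and 10.69 in WT mice A, B and C. The groups overlapped, with *Pik3cg*-/- mouse A the highest and WT mouse C the lowest of all. Its mean was 11.09 ± 0.31 in *Pik3cg*-/- mice and 11.04 ± 0.33 in WT mice (SD, n = 3 each), a log2 fold change of 0.05 (95% interval −0.47 to 0.57, adjusted p = 0.931 from limma). Leaving out WT mouse C turned this value to −0.13, as did leaving out *Pik3cg*-/- mouse A. Both other *H2-K1* probes were detected on no array.

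*H2-D1* was read by 3 measured probes. On the brightest, ILMN_2476267, *Pik3cg*-/- mice A, B and C had 11.23, 11.12 and 11.41, and WT mice A, B and C had 11.38, 11.13 and 10.52. WT mouse C stood below the other 5 mice, and the groups overlapped. The log2 fold change was 0.24 (95% interval −0.29 to 0.77, adjusted p = 0.591 from limma), and without WT mouse C it was −0.0043. ILMN_2462745 had 10.68, 10.94 and 10.99 in *Pik3cg*-/- mice, against 10.61, 10.70 and 10.22 in WT mice, with 1 WT mouse above the lowest *Pik3cg*-/- mouse. Its log2 fold change of 0.36 (95% interval −0.06 to 0.79) was the highest of the members and its adjusted p was 0.303 in limma. The dimmest, ILMN_2944011, had a log2 fold change of 0.09 (95% interval −0.47 to 0.65) and an adjusted p of 0.87 in limma, and its technical arrays differed by up to 1.22 log2 units. A further *H2-D1* probe was detected on no array.

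Within a mouse, the values of ILMN_2944011 minus those of ILMN_2476267 were −2.82, −2.81 and −2.63 in *Pik3cg*-/- mice A, B and C, against −2.62, −2.57 and −2.60 in WT mice. The groups did not overlap, although by little, and the log2 fold changes of these *H2-D1* probes differed by −0.15 (two-sided exact permutation test, p = 0.1, adjusted p = 0.5, where 3 against 3 mice cannot give less than 0.1). Differences between probe levels have no meaning as such on this array, and only their change between genotypes was read. Class I heavy chain genes are close paralogs, and since probe sequences were not used here, a probe that also binds a neighbour in the family could not be told from one that does not.

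Among the nonclassical heavy chains, *H2-T23* was measured by 3 probes. ILMN_1223179, the brightest, had log2 values of 11.38, 11.21 and 11.07 in *Pik3cg*-/- mice A, B and C, against 11.50, 11.42 and 11.15 in WT mice A, B and C. These ranges overlapped for most of their width, at 11.22 ± 0.15 in *Pik3cg*-/- mice and 11.36 ± 0.18 in WT mice (SD, n = 3 each). The log2 fold change was −0.13 (95% interval −0.52 to 0.26, adjusted p = 0.7 from limma). The other probes had log2 fold changes of 0.13 (95% interval −0.31 to 0.56) and −0.10 (95% interval −0.55 to 0.35). The only *H2-M3* probe passed no filter: it was detected on none of 6 *Pik3cg*-/- arrays and on 2 of 6 WT arrays, so no fold change is given.

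**Figure D2:**
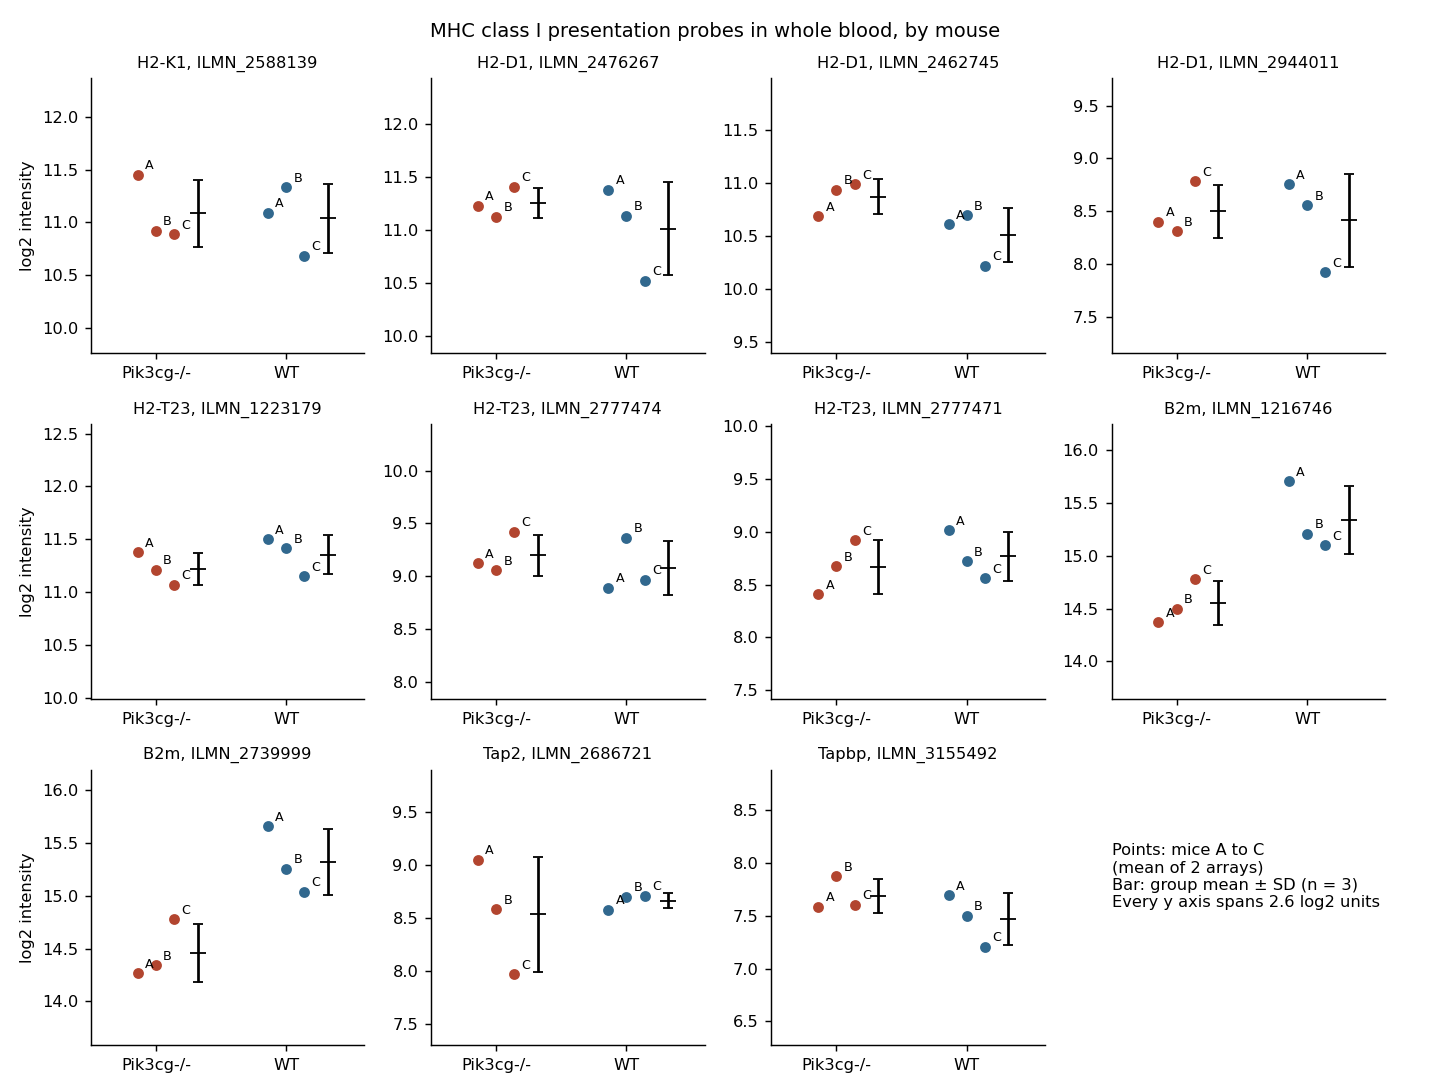
Log2 intensity of the 11 measured probes of the class I presentation genes in each Pik3cg-/- mouse (left) and each WT mouse (right); points are mice A to C (mean of 2 arrays), bars the group mean ± SD (n = 3), and every vertical axis spans the same number of log2 units. Only the 2 B2m probes show no overlap between genotypes.

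Of the peptide loading genes, *Tap2* was detected on all 12 arrays while its partner *Tap1* was detected on none, so the transporter was followed through 1 of its subunits. *Tap2* had log2 values of 9.05, 8.59 and 7.97 in *Pik3cg*-/- mice A, B and C, against 8.58, 8.70 and 8.71 in WT mice A, B and C. The *Pik3cg*-/- mice spread on both sides of the WT mice, with an SD of 0.54 in *Pik3cg*-/- mice and 0.07 in WT mice (n = 3 each). The log2 fold change was −0.13 (95% interval −0.72 to 0.47, adjusted p = 0.818 from limma), and without *Pik3cg*-/- mouse C it was 0.16. For *Tap2* the technical arrays of a mouse differed by at most 0.31, so that the spread between knockout mice was larger than that between their arrays.

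*Tapbp* was close to background and detected on 5 of 6 arrays in each group. It had log2 values of 7.59, 7.87 and 7.60 in *Pik3cg*-/- mice A, B and C, against 7.69, 7.50 and 7.21 in WT mice A, B and C. The groups overlapped, and the log2 fold change was 0.22 (95% interval −0.20 to 0.64, adjusted p = 0.531 from limma). Its technical arrays differed by up to 1.04 log2 units, more than any difference between the mice. The second *Tapbp* probe was detected on no array.

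**Figure D3:**
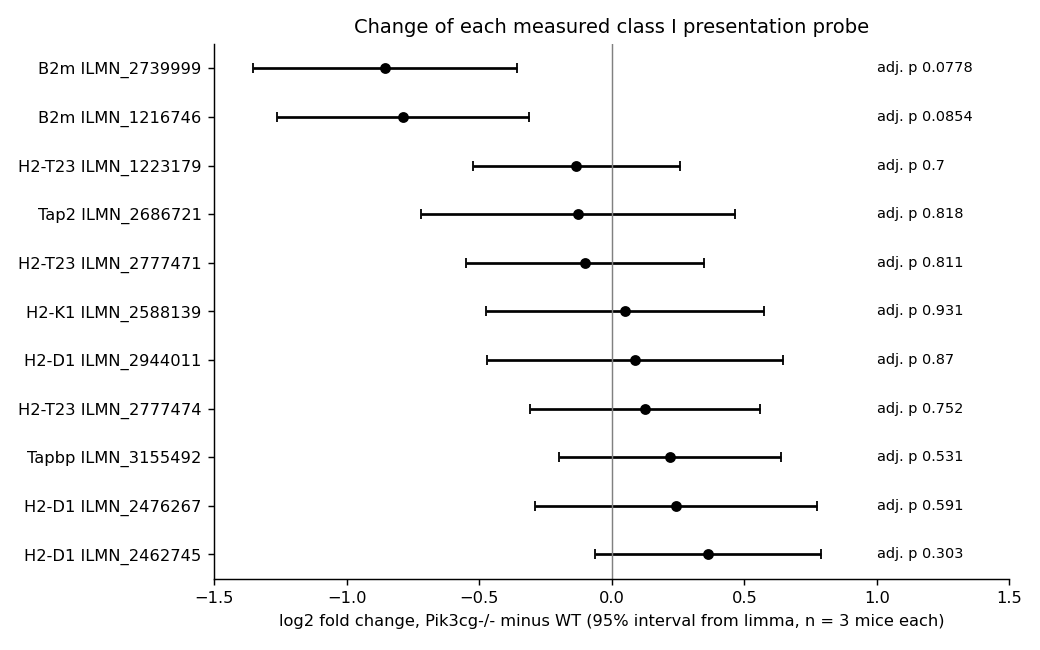
Log2 fold change (Pik3cg-/- minus WT) of each measured probe with its 95% interval from limma (n = 3 mice each) and its adjusted p. Both B2m intervals lie below 0, at −1.26 to −0.31 and −1.35 to −0.36, and all other intervals include 0.

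Seen across the members, mice and not only genotypes differed. WT mouse C had the lowest value of its group on 9 of 11 probes, and WT mouse A the highest on 7 of 11 probes. Among *Pik3cg*-/- mice, mouse C had the highest value on 7 of 11 probes and mouse A the lowest on 5 of 11 probes. The probes share the arrays of a mouse, so these counts describe the mice and are not separate results. Of the 11 probes, 5 had a negative and 6 a positive log2 fold change, with a median of 0.05 beside −0.02 over all kept probes.

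The difference between *B2m* and the heavy chains was compared within each mouse, a comparison chosen after the values had been seen. *B2m* minus *H2-D1* (brightest probes) was 3.14, 3.37 and 3.37 in *Pik3cg*-/- mice A, B and C, against 4.32, 4.07 and 4.58 in WT mice A, B and C. All *Pik3cg*-/- mice lay below all WT mice, and the difference of the log2 fold changes was −1.03. *B2m* minus *H2-T23* reached at most 3.71 in *Pik3cg*-/- mice, against at least 3.79 in WT mice (difference −0.65). *B2m* minus *Tapbp* gave a difference of −1.01, also without overlap. Each of these had the smallest two-sided p that an exact permutation test of 3 against 3 mice allows, 0.1, and an adjusted p of 0.167 over 5 comparisons. Against *H2-K1* (difference −0.84, exact p = 0.2, adjusted p = 0.25) and *Tap2* (difference −0.66, exact p = 0.3, adjusted p = 0.3) the groups overlapped.

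**Figure D4:**
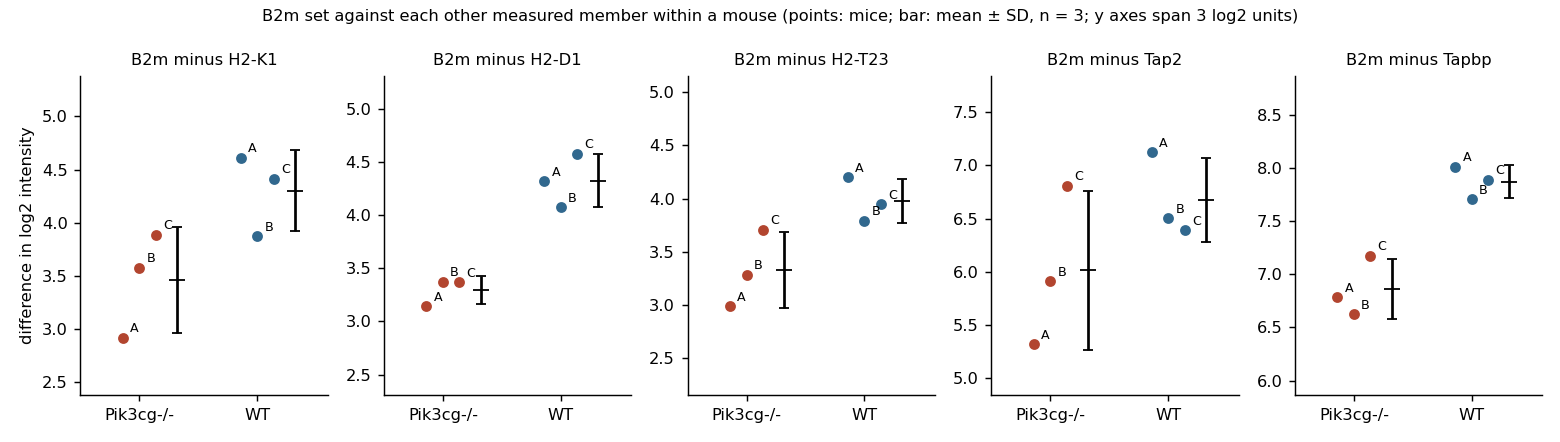
Log2 intensity of B2m minus that of each other measured member within a mouse (brightest probes), for Pik3cg-/- mice (left) and WT mice (right); points are mice and bars the mean ± SD (n = 3). Genotypes did not overlap for H2-D1, H2-T23 and Tapbp and overlapped for H2-K1 and Tap2; only the shift between genotypes, not the height of the axis, can be read.

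Other genes of the pathway were taken from 5 lists of its steps. None of their 26 measured genes passed the threshold of limma in either direction, beside 2.49% of all 3822 genes. At an unadjusted p under 0.05 in limma there were 2 of the 26, *Irf2* and *Pdia3*, beside 20.9% of all genes, and *Pdia3* lay near background. The immunoproteasome, which cuts peptides for class I molecules and is assembled with the help of *Pomp*, had 5 of 6 genes measured, with a median log2 fold change of −0.05. Its brightest gene, the proteasome activator subunit *Psme1*, had −0.05 (adjusted p = 0.912 from limma) and *Pomp* had −0.33 (adjusted p = 0.268 from limma), with no overlap between groups for *Pomp*. Of 9 genes for peptide trimming and heavy chain folding only 2 were measured. *Ganab*, a glucosidase subunit that trims sugars of new glycoproteins, had 0.23 (adjusted p = 0.502 from limma). *Pdia3*, the disulphide isomerase of the loading complex, was detected on none of 6 *Pik3cg*-/- arrays and on 3 of 6 WT arrays near background, so no fold change is given.

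Of 29 other class I and class I-like heavy chain genes, 7 were measured, with a median of −0.07 and a range of −0.29 to 0.21. The brightest were *H2-Q5* at −0.07 (adjusted p = 0.848 from limma) and *H2-Q7* at 0.12 (adjusted p = 0.752 from limma), close relatives of the classical genes whose probes may share targets with them. Of 15 regulators of class I transcription, 8 were measured, with a median of −0.04. The interferon regulatory factor *Irf1*, an activator, had 0.19 (adjusted p = 0.658 from limma), and *Irf2*, its antagonist on many promoters, had −0.46 (adjusted p = 0.155 from limma). All 3 *Pik3cg*-/- mice lay below all WT mice for *Irf2*. Of 11 receptors that read class I molecules 4 were measured. The brightest was *Cd8b1*, the β chain of the CD8 coreceptor, at 0.06 (adjusted p = 0.883 from limma). Its probe ILMN_1257694 had −0.15 (adjusted p = 0.734 from limma). ILMN_2664929, also of *Cd8b1*, was detected on no *Pik3cg*-/- array and on 3 WT arrays. Next in brightness was *Klrd1*, the CD94 partner of NK receptors for Qa-1, at −0.08 (adjusted p = 0.848 from limma).

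**Figure D5:**
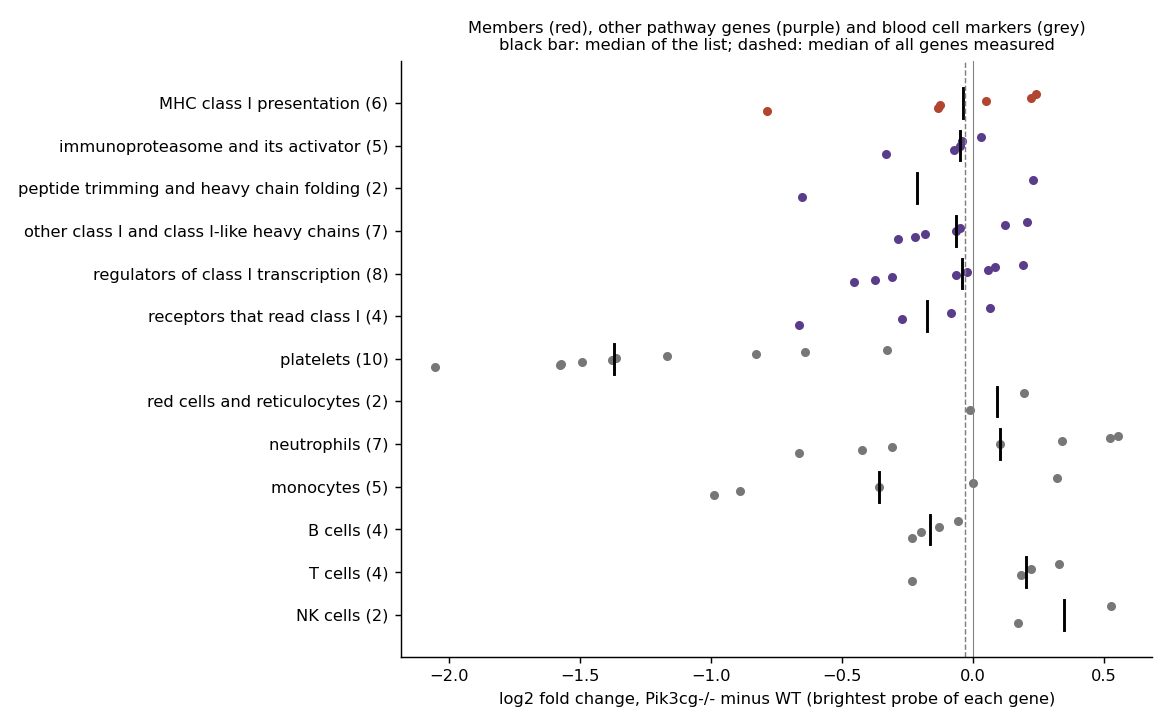
Log2 fold change (Pik3cg-/- minus WT) of each measured gene by its brightest probe, for the class I presentation genes (red), other genes of the pathway (purple) and markers of blood cells (grey), with the median of each list (black bar) and of all genes (dashed line, −0.03). Numbers in brackets count measured genes; Pdia3, Nlrc5, Klra3 and Cx3cr1 were detected on no Pik3cg-/- array, and their points are fitted values near background. B2m lies apart from the other 5 members, and the platelet list lies furthest below 0, at a median of −1.37, or −0.79 without Pik3cg-/- mouse A.

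Markers of blood cells were read from the same arrays. None of the 34 measured marker genes passed the threshold in limma, and 13 had an unadjusted p under 0.05, beside 20.9% of all 3822 genes. All 10 platelet markers were measured, 9 of them at least 1.5-fold lower in *Pik3cg*-/- blood, beside 8.74% of all 3822 genes. Among these 9 the groups overlapped for *Pf4* and *Itga2b*. The median log2 fold change of the 10 markers was −1.37. *Pik3cg*-/- mouse A weighed heavily in this: without it, a comparison added after seeing the data, 6 of 10 were at least 1.5-fold lower and the median was −0.79. The second *Itga2b* probe had a value of 0.21. The summed normalized intensity of the 10 platelet markers was 14175, 39794 and 42022 in *Pik3cg*-/- mice A, B and C, against 67579, 49050 and 70081 in WT mice A, B and C. In *Pik3cg*-/- mice this sum rose from mouse A to B to C, as *B2m* did. The order of the WT mice differed, since WT mouse A, the highest in *B2m*, was not the highest in platelet markers.

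Of 10 monocyte markers 5 were measured, and *Ccr2*, *Cd14* and *Fcgr1* were detected on no array. Their sum was 6721, 5451 and 5624 in *Pik3cg*-/- mice A, B and C, against 13631, 10039 and 7391 in WT mice A, B and C. The groups did not overlap, and WT mouse A was the highest and WT mouse C the lowest of the WT mice, as in *B2m*. The order of the *Pik3cg*-/- mice differed from that in *B2m*, since mouse A had the highest monocyte sum but the lowest *B2m* value. Most of this sum came from *Lyz2*, the lysozyme of myeloid cells, with a log2 fold change of −0.89 (adjusted p = 0.0821 from limma). The other measured monocyte markers did not share its direction throughout: *Ctss* had −0.36, *Csf1r* −0.0015 and *Adgre1* 0.32, while *Cx3cr1* was detected on no *Pik3cg*-/- array and on 4 of 6 WT arrays near background. A second *Adgre1* probe had 0.70, with all *Pik3cg*-/- mice above all WT mice (adjusted p = 0.132 from limma). Neutrophil markers summed to 15400 to 24807 in *Pik3cg*-/- mice and 21051 to 27689 in WT mice (7 of 10 measured, *Ngp* on no array). This sum followed the bright *S100a8* (−0.66) and *S100a9* (−0.42), whereas *Retnlg* (0.52), *Csf3r* (0.55, and 1.06 on its second probe) and *Cxcr2* (0.34) had higher values in all *Pik3cg*-/- mice than in any WT mouse. Of the 7 neutrophil markers 4 had positive values and the median log2 fold change was 0.10, or −0.01 without *Pik3cg*-/- mouse A. The part of platelets, monocytes and neutrophils in the *B2m* difference was not tested.

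Lymphocytes are also known to carry class I molecules, and the summed markers of each lymphocyte type overlapped between genotypes. The sum was 5300 to 10449 in *Pik3cg*-/- mice and 8407 to 9339 in WT mice for B cells (4 of 8 markers measured, *Pax5* on no array). For T cells it was 2317 to 3153 in *Pik3cg*-/- mice and 2271 to 2513 in WT mice (4 of 9 measured; *Cd28*, *Cd5* and *Trat1* on no array). For NK cells it was 874 to 991 in *Pik3cg*-/- mice and 709 to 895 in WT mice, from 2 of 9 markers, with *Ncr1*, *Klrb1c*, *Klrk1*, *Gzmb* and *Eomes* detected on no array. Of these 2 markers, *Nkg7* had a log2 fold change of 0.17 and its groups overlapped. *Prf1* had 0.52, with all *Pik3cg*-/- mice above all WT mice (adjusted p = 0.117 from limma). The red cell markers *Alas2* and *Slc4a1*, present on all arrays of this blood, summed to 124415 to 130309 in *Pik3cg*-/- mice and 115676 to 126369 in WT mice, while 2 of the 4 red cell genes with a named probe, *Epb42* and *Tfrc*, were detected on no array. *Alas2* lay between 16.04 and 16.11 log2 units in all 6 mice, and whether this probe was saturated was not tested. *Slc4a1* had a log2 fold change of 0.19, with all *Pik3cg*-/- mice above all WT mice (adjusted p = 0.517 from limma).

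The probes of other genes with the pattern most like that of *B2m* were found by the root mean square difference of values centred on each probe's mean over the 6 mice, among 4604 named probes. This distance was 0.0658 log2 units for the other *B2m* probe. It was 0.120 for *Chil3*, a chitinase-like protein of myeloid cells, which had 8.47, 8.24 and 8.68 in *Pik3cg*-/- mice A, B and C, against 9.57, 9.14 and 8.86 in WT mice A, B and C. It was also 0.120 for *Usp18*, an interferon-induced protease that removes ISG15, which had 7.70, 7.78 and 7.95 in *Pik3cg*-/- mice, against 8.66, 8.44 and 8.32 in WT mice. In both the groups were apart, with WT mouse A the highest and WT mouse C the lowest of the WT mice, as in *B2m*. Among *Pik3cg*-/- mice, *Usp18* kept the order of *B2m*, whereas *Chil3* was lowest in mouse B. The other 3 were detected on no *Pik3cg*-/- array. They were *Aif1* at a distance of 0.0997, *Vwa5a* at 0.113 (at least 1.28-fold lower in *Pik3cg*-/- mice) and *Mapkapk2* at 0.117 (at least 1.2-fold lower). Here the bound sets undetected values to the lowest detected intensity of their array. For *Aif1*, detected on 3 WT arrays near background, the bound was 0.879-fold, so a lower value in *Pik3cg*-/- mice was not shown. The likeness is a description over 6 mice that includes the difference between genotypes.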

How the data were processed

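Samples were grouped by the genotype in their labels. The intensity values deposited by the authors are average bead signals per probe and array, background-subtracted but not normalized between arrays, and each has a detection p-value per the file headers. The deposited log2 values were, according to the authors' methods, background-subtracted, variance-stabilized and quantile normalized in lumi, with a median of 7.88, and served as an alternative. No version of lumi is given in the sources used here.

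Signals were processed with limma 3.58.1 in R 4.3.3: neqc (offset 16, background model from the detection p, quantile normalization, log2), averaging of the 2 arrays of a mouse, then lmFit and eBayes with Benjamini-Hochberg adjustment over all 5498 kept probes. The limma step was tested on simulated data. Genes were named from the array's platform annotation, updated by Entrez ID, in which 34885 probes had 1 symbol, 18 had several and 10378 had none. A gene with several kept probes was represented by the brightest. Cell marker sums add the intensities, back on the linear scale, of these probes.

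The members and gene lists were chosen with earlier results of these data known. Genes named are the members, the 2 brightest measured genes of each pathway list and any past the threshold, and the 5 probes most like *B2m*. Marker genes, and genes named only in a caption, were named after their values had been seen. Alternatives changed the background correction, normalization, filter, technical arrays, test and mice. Motifs were searched and figures drawn with Python 3.11.15 and matplotlib 3.10.9.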

Additional observations from a re-analysis of the deposited data

How the results depend on the processing

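Over 22 alternatives, both *B2m* probes stayed negative in every one, from −0.91 to −0.61 for ILMN_1216746 and from −1.01 to −0.69 for ILMN_2739999, with adjusted p of 0.00272 to 0.285 and 0.00148 to 0.279. They passed the threshold in 3 and 5 alternatives. These were all 12 arrays with mice as a random block (−0.789 and −0.856), array weights (−0.83 and −0.97), a trended robust prior (−0.789 and −0.856), and for ILMN_2739999 also no background correction (−0.86) and the 75th percentile of all probes (−0.879), the last added after seeing the data. Member probes called were accordingly 2, 4, 2, 1 and 1 in these, 2 at an adjusted p under 0.1, and otherwise 0, also without any one mouse (0 to 0). Array weights stopped before converging and also called *H2-D1* ILMN_2462745 (0.393) and *Tapbp* (0.379). The slide could not be used as a block, since the file headers name none.

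Probes called over the whole array, 150 in the fit reported (79 higher and 71 lower), were 257 with the 75th percentile of probes detected on all arrays (145 higher and 112 lower), 307 with that of all probes (67 higher and 240 lower, where the median of all probes was −0.19), 86 without a filter, 83 with technical array 1 only, 471 with 12 arrays, 4 with the methods' analysis of variance after adjustment, 1761 with array weights, 259 with the trended robust prior, and 40 (without WT mouse B) to 344 (without *Pik3cg*-/- mouse A) when a mouse was left out. They were 41 without WT mouse A, 43 without WT mouse C and 46 without *Pik3cg*-/- mouse B.

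The replicate block by mouse letter called 111 probes and 0 member probes, with adjusted p of 0.135 and 0.128 for *B2m*. Same-letter correlations of deviations were 0.176, −0.179 and 0.179 for A, B and C. The highest correlations with another letter were 0.148, 0.213 and −0.0441. With so few mice these values cannot decide whether the letters pair them, and the labels do not say so.

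Signs turned only in members other than *B2m*, and none of the turned values passed the threshold. Among those that turned were *H2-D1* ILMN_2476267 and *Tapbp*, at 0.241 and 0.221 in the fit reported. With the 75th percentile of all probes, *H2-K1* was −0.146, *H2-D1* ILMN_2944011 −0.101 and *H2-T23* ILMN_2777474 −0.0852. With technical array 1 they were −0.0662, −0.183 and −0.0324, and *Tapbp* −0.0811. With array weights they were −0.148, −0.119 and −0.0461, and technical array 2 gave *H2-T23* ILMN_2777471 0.0638. Leaving out a mouse gave −0.132 to 0.198 for *H2-K1*, −0.00425 to 0.426 for *H2-D1* ILMN_2476267, −0.159 to 0.258 for *H2-D1* ILMN_2944011, −0.226 to 0.0289 for *H2-T23* ILMN_2777471 and −0.386 to 0.155 for *Tap2*. The cause of these changes was not tested. *Tap1* and *H2-M3* lay at background, so nothing can be said of their change.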
